A study of Mus musculus with 8 samples.

Results

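The core pluripotency genes described here were Pou5f1, Sox2, Sall4, Lin28a, Zfp281 and Trim28. These 6 were grouped as genes of both the naïve and the primed state of mouse pluripotent cells. They are 6 of 21000 protein-coding genes of the annotation. Their c-Jun peaks were those whose centre lay in the gene body or within 50 kb of a transcription start site (TSS), which gave 29 of 16166 peaks in EpiSCs and 17 of 6032 peaks in kEpiSCs, 46 of 22198 peaks in all. The genes were chosen by name, with earlier results of these data known. Their expression was not measured here, and the study counts Lin28a among primed-specific markers that rose only late in its naïve to primed transition.

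The series mapped c-Jun by ChIP-seq in 2 lines of mouse epiblast stem cells (EpiSCs), the primed pluripotent cells of the post-implantation epiblast, with 2 ChIP libraries and 2 input libraries per line, 8 in all. EpiSC was the wild type line, for whose c-Jun libraries the labels give the strain CBA/CaJ X C57BL/6J, whereas by the methods of the study the EpiSCs came from embryos of females of a strain not named in that label and males of the OG2 strain, which carry an Oct4-GFP reporter. kEpiSC was the same kind of cell with a Klf4 transgene under the constitutive CAG promoter, delivered by lentivirus and selected with G418, together with the Oct4-GFP reporter; the labels give no strain for it. Both lines were grown with Activin A and bFGF in primed medium, with no other treatment. The methods describe EpiSC culture both on feeders and feeder-free, and do not say which was used for ChIP. The lines thus shared these factors and, by the methods, the reporter. They differed by the Klf4 transgene, the selection and any other history of the lines. The antibody label and the methods name c-Jun, while a protocol text in the labels names an H3K27ac antibody, and which applied to these libraries was not tested.

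Pou5f1 encodes Oct4 and Sox2 encodes its HMG-box partner, and the pair binds composite DNA elements at the enhancers of most pluripotency genes. Sall4 and Zfp281 are zinc finger proteins that recruit the NuRD chromatin complex, Lin28a is the RNA-binding protein that blocks maturation of the let-7 microRNAs, and Trim28 is the corepressor that KRAB zinc finger proteins bring to endogenous retroviruses. c-Jun belongs to the AP-1 family of basic leucine zipper factors, whose dimers bind the palindrome-like site TGACTCA, read as TGAGTCA on the other strand. Expression of Pou5f1 is driven by a distal enhancer in naïve cells and mainly by a proximal enhancer in primed cells, both upstream of the gene, and the OG2 reporter is a large genomic Pou5f1 fragment with GFP from which the proximal enhancer was removed.

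The AP-1 sites in the peaks of these genes are shown with 10 bases on each side, read from the RefSeq sequence of GRCm38.p6, the assembly of mm10, on the plus strand of the chromosome, with the exact site in capitals. They are shown because they mark where the letters of the c-Jun recognition site lay inside a peak. The first lies in the place of the Pou5f1 distal enhancer, and the next 3 lie in Pou5f1 introns. The fifth and sixth lie in the strongest peak near Pou5f1, and the seventh lies in a peak far downstream of it. Of these, the middle intron site, the fifth and the seventh were inside an EpiSC peak and no kEpiSC peak. The same holds for the latter Sall4 site and the Trim28 site. The last site was outside the 50 kb limit but lay in the strongest peak near Sox2.
Pou5f1, chr17:35503833-35503859: tcctggccagTGAGTCAccaaaagaga
Pou5f1, chr17:35506994-35507020: tcagactccaTGAGTCAcctttacacg
Pou5f1, chr17:35508061-35508087: gcatccagggTGAGTCAgatgatttcc
Pou5f1, chr17:35509713-35509739: tctctccttcTGAGTCAccctctgccc
Pou5f1, chr17:35512590-35512616: gcaagtgcctTGACTCAtagtcttctc
Pou5f1, chr17:35513133-35513159: tctccagcctTGAGTCAgtctttagca
Pou5f1, chr17:35557482-35557508: gcgtgagaggTGACTCAccggcctact
Sall4, chr2:168799091-168799117: ctgctacctcTGAGTCAtcctcaggat
Sall4, chr2:168800441-168800467: gctggtgaagTGAGTCAgagagaggtc
Lin28a, chr4:134067920-134067946: agtttgggggTGACTCAcaggtaagcg
Trim28, chr7:12980069-12980095: cccctgccagTGACTCAtgcgcttttt
Sox2, chr3:34735139-34735165: cgtcacctgcTGAGTCAtctctgagaa

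The promoter of Pou5f1 is shown because both lines had a peak across the TSS there. It runs over the 250 bases before the TSS, with the 162 bases that lay in the peaks of both lines in capitals.
Pou5f1 promoter, chr17:35505782-35506031, plus strand: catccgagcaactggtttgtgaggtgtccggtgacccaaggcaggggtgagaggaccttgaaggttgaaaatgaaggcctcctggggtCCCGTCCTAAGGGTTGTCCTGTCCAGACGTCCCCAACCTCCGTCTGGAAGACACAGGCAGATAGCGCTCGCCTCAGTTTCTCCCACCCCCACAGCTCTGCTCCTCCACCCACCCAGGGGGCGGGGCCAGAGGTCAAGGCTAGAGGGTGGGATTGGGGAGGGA
Neither an exact AP-1 site nor TGACGTCA, the full cyclic AMP response element, stood in this window or in the RefSeq promoter windows (250 bases before to 50 after the start) matched for 5 of the 6 genes, Sall4 being the exception. Of all 32851 such windows, 5.2% held an exact AP-1 site and 1.79% the full response element. This says only that these letters were not in these windows.

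Each peak list gives a fold enrichment and a Poisson p-value, from which the ChIP reads at the summit and the local background (the reads MACS2 expected there from the input and its surroundings) were solved. The fold is (reads + 1)/(background + 1), with reads in kEpiSC counted at 0.775 each because ChIP was scaled down to the smaller input. The median peak had 10 reads in EpiSC (interquartile range 8 to 13) and 14 reads in kEpiSC (11 to 18), with a median fold of 6.16 and 7.23. There was 1 list per line and no value per library, so no difference between the lines could be tested, no replicate error is known, and all values below are descriptions of these lists.

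c-Jun peaks lay around 5 of the 6 genes in EpiSC, the exception being Sox2, where 52.8% of all protein-coding genes had a peak by the same rule. In kEpiSC 4 of the 6 genes had a peak, the exceptions being Sox2 and Zfp281, where 28.7% of all protein-coding genes had one. Over genes no longer than Sall4, the longest of the 6, these shares were 48.8% and 25.8%. Pou5f1 took 15 of the 29 EpiSC peaks and 13 of the 17 kEpiSC peaks. Sall4 had 5 and 1, Lin28a 4 and 2, Trim28 3 and 1, and Zfp281 2 and 0. As many peaks as at Pou5f1 or more were found at 0.157% of protein-coding genes in EpiSC and at 0.0381% in kEpiSC, whereas the 5 EpiSC peaks of Sall4 were reached by 6.51% of genes, the 4 of Lin28a by 10.7%, the 3 of Trim28 by 18.5% and the 2 of Zfp281 by 31.1%.

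**Figure D1:**
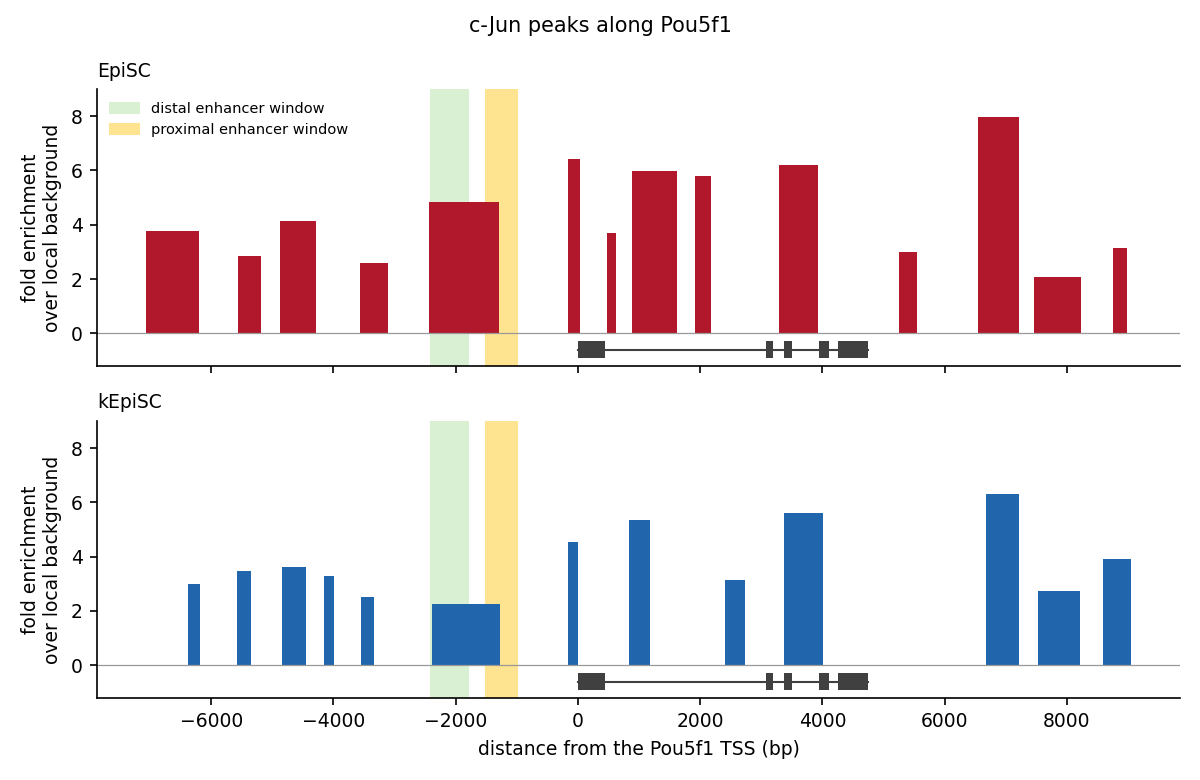
c-Jun peaks along Pou5f1 in EpiSC (top) and kEpiSC (bottom). Each bar spans a peak from its start to its end in bp from the TSS, its height is the fold enrichment over local background, dark boxes under the axis are the 5 exons, and the green and yellow bands are the windows taken for the distal and the proximal enhancer. A bar covers the distal window in both lines, the stretch between the proximal window and the promoter is empty in both, and the highest bar of either line lies past the end of the gene.

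At Pou5f1 (chr17:35506032-35510777, plus strand), the peaks formed a run across and beyond the gene in both lines. The run is defined as the peaks near Pou5f1 whose background was over 4 times the list median, so that its high background is part of its definition, and positions in it are given in bp from the TSS, negative upstream. In EpiSC it held 14 peaks over 16040 bp, from -7060 to 4234 bp past the gene end. In kEpiSC it held 13 peaks over 15421 bp, from -6378 to 4297 bp past the gene end. No other stretch of that length held more than 10 peaks in EpiSC or 6 in kEpiSC. Both ends of the run thus lay outside Pou5f1, and its downstream end lay in Tcf19, the neighbouring gene for a transcription factor of growing cells.

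Upstream of the gene, EpiSC had peaks centred at -6631, -5376, -4576, -3341 and -1865, with folds of 3.79, 2.83, 4.15, 2.58 and 4.85. kEpiSC had peaks at -6279, -5465, -4643, -4066, -3441 and -1832, with folds of 3.01, 3.46, 3.61, 3.27, 2.50 and 2.25. All kEpiSC peaks upstream overlapped an EpiSC peak except that at -4066.

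The peak nearest to the Pou5f1 enhancers was the widest of the run in both lines. It covered chr17:35503593-35504742 in EpiSC, 1150 bp wide, with 50 reads against a background of 15.0 times the list median. In kEpiSC it covered chr17:35503639-35504762, 1124 bp wide, with 51 reads against 34.8 times the median. The fold was 4.85 in EpiSC and 2.25 in kEpiSC, the lowest fold of the whole kEpiSC list. A kEpiSC read counts 0.775 in the fold, so that both the scaled reads and the background enter this difference. The window taken for the distal enhancer, 1800 to 2400 bp upstream, was covered to 100% in EpiSC and 98.8% in kEpiSC, and it held the first site shown above, which was centred at -184 bp from the EpiSC summit and -262 bp from the kEpiSC summit, counted along the plus strand. Of the window for the proximal enhancer, 1000 to 1500 bp upstream, 42.1% and 46.1% were covered, all of it at the distal side. The windows are approximate textbook places and not measured limits.

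Between this peak and the promoter, 1103 bp from -1269 to -167 were free of peaks in both lines. This stretch includes the TSS-proximal side of the proximal enhancer window. The peak edges on its 2 sides differed by 20 bp and 4 bp between the lines, whereas over all 4595 overlapping pairs of peaks the median edge difference was 46 bp, with 28.9% of edges within 20 bp and 8.1% within 4 bp. Other edges of the run were as close, with the ends of the peaks at 6874 and 6945 in the same place and those at 7842 and 7869 10 bp apart. A longer stretch of 1240 bp without peaks, from 4011 to 5250, ran over the end of exon 4 and all of exon 5, and others of 987 bp (from 5552 to 6538) and 670 bp (from -3109 to -2440) lay outside the gene. The one next to the promoter was therefore not the longest gap of the run.

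The promoter peak itself was narrow. It covered 193 bp in EpiSC, chr17:35505870-35506062, with 40 reads and a fold of 6.42, and 175 bp in kEpiSC, chr17:35505866-35506040, with 31 reads and a fold of 4.53. Its background was 8.48 and 9.27 times the list median. In neither line did its central 200 bp hold an AP-1 site, even with 1 mismatch allowed.

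Inside the gene, EpiSC had peaks at 547, 1252, 2047 and 3615, with folds of 3.71, 5.98, 5.80 and 6.19. kEpiSC had peaks at 1007, 2575 and 3694, with folds of 5.33, 3.13 and 5.60. The EpiSC peak at 1252 and the kEpiSC peak at 1007 overlapped, as did those at 3615 and 3694, while those at 547, 2047 and 2575 had no counterpart. The peaks at 2047 and 2575 both lay upstream of the second annotated TSS, the start of a shorter transcript, and the kEpiSC peak was centred 200 bp from it.

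The peaks of the gene body lay mostly in introns. Of the 1353 bp of exons of the longest transcript, 12.0% were covered in EpiSC and 14.7% in kEpiSC, against 48.5% and 33.0% of its introns. Exons 2 and 5 were free of peaks in both lines. Exon 3 was covered to 100% and 97.7%, exon 1 to 6.86% and 1.99%, and exon 4 to 0% and 39.0%. Upstream of the gene 51.1% of the run was covered in EpiSC and 39.1% in kEpiSC, and downstream of it 46.8% and 39.2%, so that the run did not follow the exons.

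Downstream of Pou5f1, the strongest peak of the run in both lines lay at chr17:35512571-35513241 in EpiSC and chr17:35512713-35513241 in kEpiSC, in an untranslated part of Tcf19. EpiSC had 60 reads there and a fold of 7.97, kEpiSC 67 reads and a fold of 6.32. Only 3 peaks of the EpiSC list had as many reads, this one included, and in kEpiSC it had the most of the whole list. By adjusted p-value, 1.01% of EpiSC peaks and 4.03% of kEpiSC peaks ranked above it. The summits stood 7 bp apart, where the median over all overlapping pairs was 24 bp, and the AP-1 site at chr17:35513143-35513149 was centred 11 bp past the EpiSC summit and 18 bp past the kEpiSC summit.

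The other peaks downstream had lower folds. EpiSC had 2.99 at 5401, 2.08 at 7842 and 3.15 at 8863, and kEpiSC had 2.75 at 7869 and 3.91 at 8814. The peaks near 7842 and 8863 lay in an intron and a coding exon of Tcf19. The peak at 5401 was found in EpiSC alone.

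**Figure D2:**
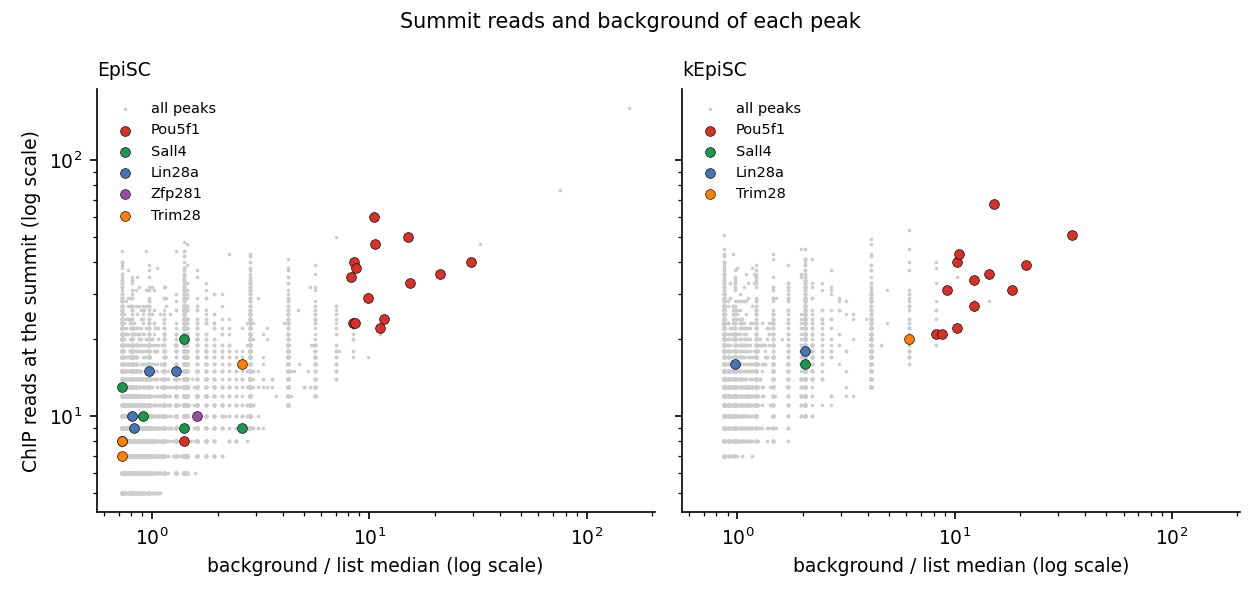
ChIP reads at the summit (vertical, log scale) against the local background as a multiple of the list median (horizontal, log scale) for every peak of EpiSC (left, 16166 peaks) and kEpiSC (right, 6032 peaks). Grey points are all peaks and coloured points those of the core genes; the red Pou5f1 points of the run lie at 8 to 35 times the median background with 21 to 67 reads, a range that holds some grey points too, and the 1 red point among the grey in EpiSC is the peak far downstream.

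Every peak of the run had more reads and a higher background than the median peak of its list. Reads were 22 to 60 (median 35.5) in EpiSC and 21 to 67 (median 34) in kEpiSC. Background was 8.21 to 29.5 times the list median in EpiSC (median 10.6) and 8.20 to 34.8 times in kEpiSC (median 12.3), where a background over 4 times the median was seen in 2.78% of all EpiSC peaks and 6.65% of all kEpiSC peaks. Set against these backgrounds the folds were low, with 11 of 14 below the list median in EpiSC and 13 of 13 in kEpiSC. The high background was set by the definition of the run, and a peak on a high background is called only with more reads. The high reads therefore follow in part from that definition. The low folds do too, since the background is part of the divisor of the fold.

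The background of the run was in part read directly from the input at the summit. At 6 of the 14 EpiSC peaks and 8 of the 13 kEpiSC peaks it came out, within 0.0002, as a whole number of input reads (worth 0.89 each in EpiSC and 1 in kEpiSC). These numbers were 6 to 21 input reads in EpiSC, with 21 at 7842 and 15 at -3341, and 4 to 17 in kEpiSC, with 17 at -1832 and 9 at -3441. In the whole lists, where the background came out whole the median was 1 input read, and 6 or more were found at 19 of 5846 such EpiSC peaks (0.325%), 13 of them outside the run. In kEpiSC 4 or more were found at 21 of 1738 such peaks (1.21%), 13 of them outside the run. An input above that median was fixed by the definition of the run, and the limits of 6 and 4 were its own lowest numbers. The values therefore describe how high the input was and test nothing.

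The Oct4-GFP reporter of these cells carries Pou5f1 sequence, and reads from such a copy map to the same place as those of the native gene. The ends and the missing part of the reporter are not in the files used here, and its part in the run was not tested. The values that stand beside it are the nearby ends of the run and the raised background, in both lines. The high background is part of the definition of the run. Further values are the cover of introns as well as exons, and the stretch free of peaks at -1269 to -167. Gaps of like size stood elsewhere in the run.

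Most peaks of the run were found in both lines. Of the EpiSC peaks in it 11 of 14 were overlapped by a kEpiSC peak. Of the kEpiSC peaks 11 of 13 were overlapped by an EpiSC peak. Over the whole lists 28.3% of EpiSC peaks and 75.8% of kEpiSC peaks were overlapped. Peaks of the run were wider, with a median of 530.5 bp in EpiSC and 348 bp in kEpiSC, where the lists had 190 and 179 bp. A wider peak meets another more easily, and the shares were not matched for width or reads. Over all 29 EpiSC peaks of the 6 genes, 14 were overlapped, 11 had a kEpiSC summit within 100 bp (24.9% of all EpiSC peaks did), and 9 shared 50% of both peaks (18.9% of all). In 8 of the 11 overlapping pairs of the run and in 4 of 4 pairs of the other genes the fold was higher in EpiSC, beside 57.0% of all 4595 overlapping pairs. The 4 pairs are not separate, since the Lin28a EpiSC peak at -49233 is paired with the kEpiSC peaks at -49090 and at -49502. The 3 pairs of the run with the higher fold in kEpiSC were those at -5376, 7842 and 8863.

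Few peaks of the run held an AP-1 site near their centre. In the central 200 bp an exact site stood in 2 of 14 EpiSC peaks and 2 of 13 kEpiSC peaks, beside 45.9% of all EpiSC peaks and 58.6% of all kEpiSC peaks. The peak at 3615 in EpiSC and 3694 in kEpiSC held the site at chr17:35509723-35509729. This site was at the very centre of the kEpiSC peak and at -48 bp from its summit. The EpiSC peak at 2047 held that at chr17:35508071-35508077, and the kEpiSC peak at 1007 that at chr17:35507004-35507010, 3 bp from its summit. Over whole peaks, which were wide here, 5 of 14 and 4 of 13 held a site, with no share of all peaks to set beside these. With 1 mismatch allowed in the central 200 bp, 7 of 14 and 8 of 13 did. The shares of all peaks were then 78.3% in EpiSC and 86.4% in kEpiSC. The strongest peak of the run had a site near its summit in both lines but none in its central 200 bp. Within 100 bp of the summit, 8 of 29 EpiSC and 5 of 17 kEpiSC peaks of the 6 genes held an exact site. By the central 200 bp these were 6 and 4.

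Beyond the run, Pou5f1 had 1 further EpiSC peak at 51474, within the limit only by the second TSS, with 8 reads and a fold of 4.76. Its background was 1.40 times the list median, and its nearest TSS was that of Cdsn, the gene for corneodesmosin of skin. Its AP-1 site, shown above, lay 11 bp from the centre of the peak but at -116 bp from its summit.

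**Figure D3:**
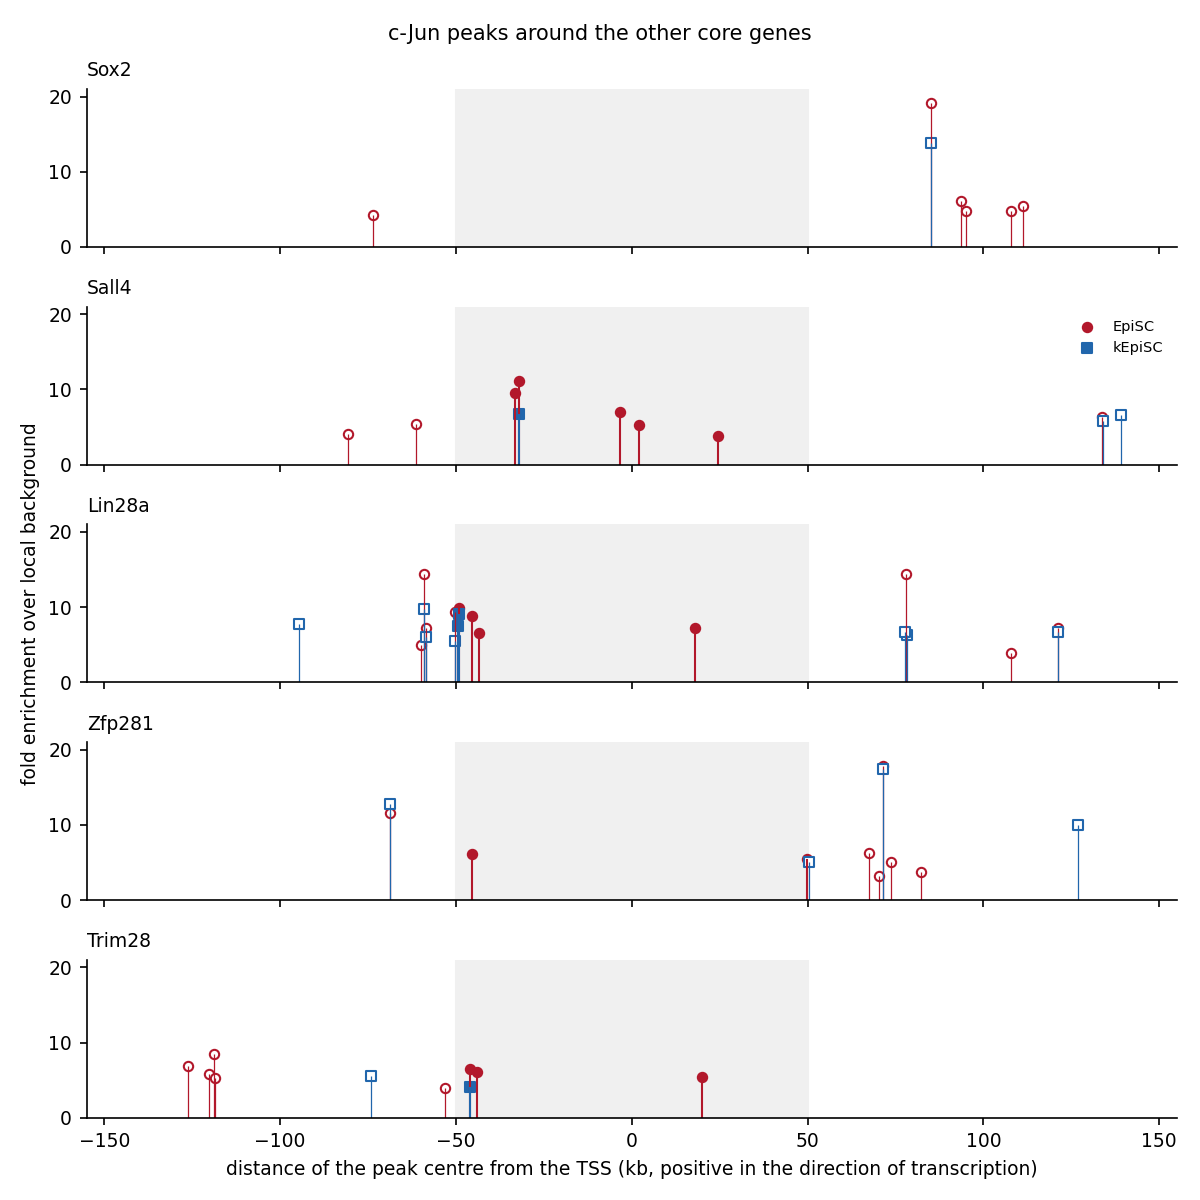
Peaks around Sox2, Sall4, Lin28a, Zfp281 and Trim28, with fold enrichment (vertical) against the distance of the peak centre from the TSS in kb (horizontal, positive in the direction of transcription). Red circles are EpiSC and blue squares kEpiSC; filled symbols are peaks counted for the gene and open symbols those beyond 50 kb, which bracket the grey band. No symbol stands within the band for Sox2, and the highest one of all is the open Sox2 circle at a fold of 19.2.

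The 15 EpiSC peaks and 4 kEpiSC peaks outside the run had reads and backgrounds nearer to the medians of their lists. Their EpiSC folds were 3.79 to 11.1 (median 6.45) with 7 to 20 reads and a background of 0.727 to 2.58 times the list median. In kEpiSC the folds were 4.13 to 9.08 (median 7.09) with 16 to 20 reads and a background of 0.976 to 6.15 times the median. Exact AP-1 sites in the central 200 bp were held by 4 of 15 and 2 of 4, beside 45.9% and 58.6% of all peaks. A peak of the other line overlapped 3 of 15 and 4 of 4, beside 28.3% and 75.8% of all peaks. Only 2 of these EpiSC peaks, both at Sall4, and none in kEpiSC lay within 10 kb of the TSS.

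Sall4 (chr2:168748332-168767201, minus strand) had the highest fold of the 46 peaks. It was 11.1 with 20 reads at -31915 in EpiSC, chr2:168799051-168799182, and 7.11% of the EpiSC list ranked above it. kEpiSC had a peak at the same place, at -31966, with 16 reads and a fold of 6.70, and 55.5% of its list ranked above it. The site at chr2:168799101-168799107 stood at the EpiSC summit and 14 bp from the kEpiSC summit.

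The other 4 peaks of Sall4 were found in EpiSC alone. A second upstream peak at -33251 had 13 reads and a fold of 9.58, with an AP-1 site at -9 bp from its summit. At -3403 stood a peak with 10 reads and a fold of 6.99, and at 2079, in a Sall4 intron, 1 with 9 reads and a fold of 5.29, whose nearest TSS was that of Gm14261, an unnamed gene 1021 bp away. The peak at 24404, with 9 reads and a fold of 3.79, lay past the end of Sall4 and 661 bp from the TSS of Atp9a, a phospholipid flippase gene. The upstream pair thus held both AP-1 sites and both of the higher folds of this gene.

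Lin28a (chr4:134003330-134018816, minus strand) had no peak nearest to its own TSS. The EpiSC peak downstream, at 17892 with 10 reads and a fold of 7.28, stood 42 bp from the TSS of Dhdds, an enzyme of dolichol synthesis. Upstream, EpiSC had 9 reads and a fold of 6.57 at -43391, 15 reads and 8.80 at -45391, and 15 reads and 9.91 at -49233. All 3 were nearest to Crybg2, a crystallin-domain gene.

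At the last of these places kEpiSC had a pair of peaks inside the 748 bp that the single EpiSC peak covered or reached. They stood at -49090, with 16 reads and a fold of 9.08, and at -49502, with 18 reads and a fold of 7.48, the latter 134 bp from the TSS of Crybg2. The AP-1 site at chr4:134067930-134067936 was centred at -24 bp from the EpiSC summit and 55 bp from that of the kEpiSC peak at -49090. These peaks lie just inside the 50 kb limit, and an EpiSC peak with a fold of 9.39 at -50392 lies just outside it.

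Trim28 (chr7:13024152-13031032, plus strand), in a gene-dense stretch with 6 other genes whose TSS fell in its window, likewise had no peak nearest to its own TSS. At the TSS of Zfp446, a zinc finger gene, EpiSC had 16 reads and a fold of 6.45 at -45865, and kEpiSC had 20 reads and a fold of 4.13 at -46024, in an untranslated part of that gene. Background there was 2.58 times the list median in EpiSC and 6.15 times in kEpiSC. The EpiSC peak at -44111, with 8 reads and a fold of 6.16, lay in an intron of Zfp446 and held the AP-1 site shown above 46 bp from its summit. A last EpiSC peak at 20041, with 7 reads and a fold of 5.47, lay in a coding exon of Mzf1, a zinc finger gene, and was nearest to the TSS of Ube2m, the neddylation enzyme.

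Zfp281 (chr1:136624901-136630391, plus strand) had 2 EpiSC peaks near the limit, 1 on either side. They stood at -45415 with 8 reads and a fold of 6.16, and at 49727 with 10 reads and a fold of 5.44, and neither held an AP-1 site in its central 200 bp. kEpiSC had no peak within the limit, and its nearest, with 10 reads and a fold of 5.11, stood at 50402, just outside. The EpiSC peak at 49727 and the kEpiSC peak at 50402 thus stood on either side of the limit.

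Farther out, Zfp281 had stronger peaks in both lines. At 71571 EpiSC had 35 reads and a fold of 17.8, and at 71456 kEpiSC had 32 reads and a fold of 17.5, by the start of Platr22, a noncoding RNA gene. Only 0.513% of the EpiSC list and 1.16% of the kEpiSC list ranked above them. At -68786 and -68713 stood another shared peak, with folds of 11.6 and 12.8, whose nearest TSS was that of Zfp281.

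Sox2 (chr3:34649995-34652461, plus strand) had no peak of either line within 50 kb. The nearest EpiSC peak stood at -73546, in an intron of the noncoding overlapping transcript Sox2ot, with 7 reads and a fold of 4.23. Downstream, at 85160, EpiSC had 27 reads and a fold of 19.2, chr3:34735048-34735262, with 0.643% of the list above it. kEpiSC had 24 reads and a fold of 13.8 there, chr3:34735066-34735425, with 4.72% of its list above it, and the AP-1 site shown above was centred 3 bp from the EpiSC summit and at -8 bp from the kEpiSC summit. Both folds were higher than at any of the 46 peaks counted for the 6 genes.

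Beyond it EpiSC had weaker peaks at 93644, 95007, 107983 and 111341, with 7 or 8 reads each and folds of 6.16, 4.76, 4.76 and 5.47, and kEpiSC had no other peak up to 150 kb. The Sox2 control region, a cluster of distal enhancers known from mouse embryonic stem cells, lies downstream of the gene in this range of distances. Its limits are not in the files used here, so no overlap with these peaks was measured.

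Over the 6 genes, the peaks were nearest to the TSS of the gene itself in 15 of 29 cases in EpiSC and 11 of 17 in kEpiSC. Without the Pou5f1 run these were 4 of 15 and 1 of 4. No peak held TGACGTCA, beside 2.13% of all EpiSC peaks and 2.4% of all kEpiSC peaks with it in the central 200 bp. The octamer ATGCAAAT, the binding site of POU factors such as Oct4, was in no central 200 bp, beside 1.34% and 1.13% of all peaks, and over whole peaks it was in 1, the kEpiSC peak of Pou5f1 at 3694.

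**Figure D4:**
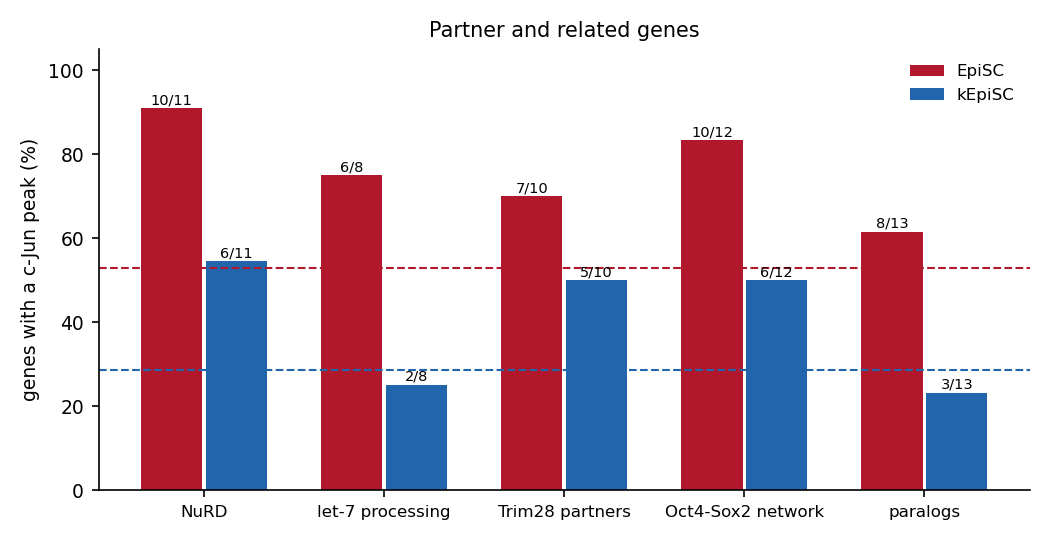
Share of genes with a c-Jun peak in the gene body or within 50 kb of a TSS (vertical, in percent from 0) for 5 lists of related genes (horizontal), EpiSC in red and kEpiSC in blue, with the counts above the bars. Dashed lines are the shares of all protein-coding genes, 52.8% in EpiSC and 28.7% in kEpiSC; all 5 red bars stand above their line, and the let-7 and paralog bars of kEpiSC stand below theirs.

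The genes that work with the core factors were counted by the same rule and are set beside the same shares of all genes. Gene length and neighbouring genes were not matched. Of 11 NuRD subunits, which Sall4 and Zfp281 recruit, 10 had a peak in EpiSC and 6 in kEpiSC. The highest EpiSC folds were at Rbbp4 (13.2), a histone chaperone subunit, Mta2 (10.6) and Gatad2a (8.47), and Hdac2 had none. The Mta2 peak lay between genes, nearest to the TSS of Ahnak.

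Of 8 genes linked to let-7, by its processing, decay or block or as its target, 6 had a peak in EpiSC and 2 in kEpiSC. The highest EpiSC folds were at Dis3l2 (10.4), the exonuclease that degrades uridylated pre-let-7, Trim71 (9.35), a let-7 target, and Drosha (7.53), the nuclear processing enzyme. In kEpiSC the folds were 11.9 at Trim71 and 6.69 at Dis3l2, and Drosha had no peak. For both genes this highest peak lay at another place than in EpiSC. At Dis3l2 it lay in an intron of the gene in EpiSC, and between genes, nearest to the TSS of Nppc, in kEpiSC. At Trim71 both lay in introns of the gene, with the kEpiSC peak nearest to the TSS of Ccr4. Of 10 partners of Trim28, 7 had a peak in EpiSC and 5 in kEpiSC, while the methyltransferase Setdb1 had none. The highest EpiSC folds were at Atf7ip (11.6), which stabilises Setdb1, Uhrf1 (8.47), a hemimethylated DNA reader, and Dnmt1 (7.94), the maintenance methyltransferase. In kEpiSC the order was Dnmt1 (9.18), Uhrf1 (8.87), Cbx1 (8.32), with Atf7ip at 6.70. The Uhrf1 peak of either line lay between genes, nearest to the TSS of Fem1a.

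Of 12 genes of the Oct4-Sox2 network, 10 had a peak in EpiSC and 6 in kEpiSC. The highest EpiSC folds were at Tdgf1 (13.8), the Nodal coreceptor Cripto, Utf1 (9.52), a chromatin factor, and Esrrb (8.47), a nuclear receptor of the naïve state. Of these the peaks of Tdgf1 and Utf1 lay in introns of the neighbouring genes Lrrc2 and Spef1l, and that of Esrrb in its own intron. Of 13 paralogs of the 6 genes, 8 had a peak in EpiSC and 3 in kEpiSC, led in EpiSC by Trim33 (9.52), Pou3f1 (9.02), the Oct6 gene, and Zfp148 (8.84). The Pou3f1 peak lay in an intron of Gm2164. Lin28b, the paralog of Lin28a, had no peak in either line.

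With 7 to 20 reads at the peaks outside the run, no difference between the lines in a single peak can be set against an error. The kEpiSC list was shorter, with more reads at its median peak, so that a missing c-Jun peak and a peak under its threshold cannot be told apart.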

How the data were processed

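c-Jun ChIP and input libraries were sequenced. The authors aligned them to mm10 (Bowtie2), retained only reads with a unique position and ran MACS2 at its default settings, each in a version not given in the sources used here. The authors deposited 1 peak list per line, taken to pool both ChIP libraries, with peak score, fold enrichment (a ratio over local background), −log10 p and −log10 q. Signal tracks were not used here.

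From these, summit reads and background were solved for every peak with Python 3.11.15 and scipy 1.17.1, within 0.001 of the deposited −log10 p for all peaks. The solution was tested on simulated data. TSSs, exons and sequence came from RefSeq GRCm38.p6, with TSSs and exons of curated transcripts. AP-1 sites were exact TGACTCA or TGAGTCA on both strands in the central 200 bp, overlap meant 1 bp or more, and higher- and lower-scoring peaks were ranked by −log10 q. Library totals are not in the lists, so depth is known only as reads at summits, and values cover no replicate error. All peaks of the 6 genes are named, with the gene of the nearest TSS, and up to 3 genes per list by highest fold. The members and lists were chosen with earlier results of these data known.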

Additional observations from a re-analysis of the deposited data

How the results depend on the processing

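Of 49 alternative values, 27 stayed within 1.5 times the reported one and 22 moved by more. At 10 kb from a TSS the peaks numbered 16 in EpiSC, and 2 genes in EpiSC and 1 in kEpiSC had a peak. At 25 kb there were 19 EpiSC peaks, and 1 kEpiSC gene had a peak. At 150 kb there were 61 EpiSC and 35 kEpiSC peaks. A −log10 q of at least 5 left 19 EpiSC and 8 kEpiSC peaks. The upper 50% of each list by −log10 q left 15 and 6, with 2 kEpiSC genes. Leaving out peaks with a background over 4 times the median left 2 kEpiSC genes with a peak. Without Pou5f1, an alternative chosen after seeing the data, 14 EpiSC and 4 kEpiSC peaks were left, 3 EpiSC peaks were overlapped by a kEpiSC peak, and 3 and 2 peaks held an AP-1 site. With 50% of both peaks shared, 9 EpiSC peaks were overlapped. AP-1 sites were in 10 EpiSC peaks over the whole peak, and with 1 mismatch allowed in 16 EpiSC and 10 kEpiSC peaks, beside 78.3% and 86.4% of the lists. These moves follow from fewer or more peaks being counted, or more bases searched. TSSs of GENCODE transcripts, also chosen after seeing the data, kept the counts within 1.5 times.

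No paired analysis was possible because only 1 list of peaks was given for a line, with no value for a single library. Leave-one-out values were not computed for this reason. The lists limit what can be seen: peaks below the threshold of the caller are not in them, how much each replicate weighs in a list is unknown, and reads at a summit say nothing of the totals of the libraries.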

Other observations

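Beyond 50 kb, Pou5f1 had 3 peaks that both lines shared, with a background of 0.869 to 3.17 times the list median. At 85860 EpiSC had 14 reads and a fold of 8.25, and at 85974 kEpiSC had 14 reads and a fold of 8.32, with an exact AP-1 site in the central 200 bp in both. At 89693 and 89755 the folds were 8.99 and 6.15, and at 128341 and 128304 they were 7.29 and 5.87. These folds were higher than those of most peaks in the run across the gene, with fewer reads. Their nearest TSSs were those of 2300002M23Rik and Gm9573, and no gene was tied to them by any measurement here.

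Lin28a had 2 of its strongest neighbouring peaks outside the limit. At -59091, in an intron of Crybg2, EpiSC had 20 reads and a fold of 14.4, and at -59144 kEpiSC had 19 reads and a fold of 9.79. On the other side, at 78016, EpiSC again had 20 reads and a fold of 14.4, while kEpiSC had a pair of peaks there at 77652 and 78261 with folds of 6.69 and 6.28. Near Trim28, the 5 EpiSC peaks and 1 kEpiSC peak between 50 and 150 kb were overlapped by none of the other line. Over the whole lists 28.3% of EpiSC peaks and 75.8% of kEpiSC peaks were overlapped. The counts near Trim28 are too small to set against these shares.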
